A study of Mus musculus with 10 samples.

Results

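The Gli2 loci of day 0 fibroblasts alone are genome regions chosen by their deposited signals: the regions of the locus table (build mm10) at which the Gli2 signal of the day 0 library was 100 or more while the signal of each of the other 9 libraries was below 100. Loci within 1 kb of an annotated nuclear tRNA gene were left out. Of 1577 listed loci, 628 reached 100 with Gli2 at day 0, 357 of them in no other library, and 301 remained after the 56 loci beside tRNA genes were left out. All 10 signal columns were used to choose these loci, so their signals are given below as a description, without a test, and the choice itself makes them high at day 0 and low elsewhere.

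The study used chromatin immunoprecipitation and sequencing with an antibody to Gli2 or to Elk1 in mouse cells, with 1 library per antibody and stage. Day 0, day 4 and day 8 were cells that the labels call tdMEFs, grown in a fibroblast medium and then kept for 0, 4 or 8 days in M9. M9 is a neural medium at low oxygen with bFGF and small molecules, among them the Smoothened agonist Hh-Ag1.5, the GSK3 inhibitor CHIR99021, the BMP receptor inhibitor LDN193189, the TGF-beta receptor inhibitor A83-01, retinoic acid, SMER28, RG108 and Parnate. The other stages were the chemically induced neural stem cell-like cells named ciNSLCs and the neural progenitor cells named pri-NPC. The labels name no genotype, strain, age or sex of the mice and no input or control immunoprecipitation. With 1 library per group no difference between stages has a replicate check. Loci that could show the identity of the cells were scarce. No locus was assigned to the fibroblast genes Col1a1, Col1a2, Thy1 or Twist2, and of the progenitor genes Sox2, Nes, Pax6 and Olig2, Pax6 alone had a day 0 Gli2 locus of this kind.

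Gli2 is a zinc finger transcription factor of the Hedgehog pathway. When a Hedgehog ligand binds the receptor Ptch1, Smoothened is released and Gli2 is kept from proteolysis, enters the nucleus and activates targets such as Gli1 and Ptch1, while Sufu holds it back in the absence of the signal. Gli proteins bind the motif GACCACCCA, and in fibroblasts and neural progenitors the pathway is known for control of proliferation and patterning.

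Sequences were available for windows from 250 bases before to 50 bases after annotated gene starts (RefSeq, GRCm38.p6, the build of the locus table). Only 4 of the 288 loci on chromosomes with such windows overlapped one. The 3 with more than a few shared bases are printed 5′ to 3′ because they are the loci that reach into an available promoter window. The windows left out some genes of these chromosomes, so other loci may reach into promoters too. The annotated start lay inside the locus at Hnrnpab and Gm15564, and 106 bp beyond its end at Eef2k. Capitals mark the bases inside the listed locus, whose ends may be off by a base because the table does not state how it counts.
Hnrnpab chr11:51606832-51607131 (- strand): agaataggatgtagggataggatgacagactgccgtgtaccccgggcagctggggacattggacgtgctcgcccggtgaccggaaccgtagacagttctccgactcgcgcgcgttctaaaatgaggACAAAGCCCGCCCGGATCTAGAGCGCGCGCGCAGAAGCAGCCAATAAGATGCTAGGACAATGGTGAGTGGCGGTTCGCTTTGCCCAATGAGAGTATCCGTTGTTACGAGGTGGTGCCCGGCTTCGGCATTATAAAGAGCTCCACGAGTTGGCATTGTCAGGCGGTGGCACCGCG
Eef2k chr7:120842581-120842880 (+ strand): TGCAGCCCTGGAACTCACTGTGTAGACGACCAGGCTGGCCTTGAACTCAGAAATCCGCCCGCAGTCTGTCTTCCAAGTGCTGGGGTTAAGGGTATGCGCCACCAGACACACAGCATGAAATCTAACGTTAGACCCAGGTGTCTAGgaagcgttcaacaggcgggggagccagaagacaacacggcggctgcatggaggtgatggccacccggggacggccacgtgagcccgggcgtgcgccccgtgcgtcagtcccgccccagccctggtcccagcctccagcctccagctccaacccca
Gm15564 chr16:35981800-35982099 (- strand): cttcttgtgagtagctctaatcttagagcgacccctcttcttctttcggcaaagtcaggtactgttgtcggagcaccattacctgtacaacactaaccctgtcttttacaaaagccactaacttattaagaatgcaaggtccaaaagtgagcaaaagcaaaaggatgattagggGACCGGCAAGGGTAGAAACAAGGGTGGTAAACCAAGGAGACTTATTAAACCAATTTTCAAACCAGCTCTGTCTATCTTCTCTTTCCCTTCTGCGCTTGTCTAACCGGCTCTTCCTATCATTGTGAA

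Hnrnpab encodes an RNA-binding protein of heterogeneous nuclear ribonucleoprotein particles, Eef2k encodes the kinase that inactivates elongation factor 2, and Gm15564 is a long non-coding RNA gene. The windows had 174, 145 and 126 bases inside their loci. Neither GACCACCCA nor its core CCACCCA, read on both strands (the core lies within the longer motif), occurred in any of the 3 windows. Over all 32851 windows the motifs occurred in 0.253% and 9.3%. The TATA box letters TATAAA occurred in the Hnrnpab window within the locus, just after the annotated start and not before it, and in 13.6% of all windows. The polymerase III B box, GTTCNANNC on either strand, occurred once in the Eef2k window, within the locus, and in 9.32% of all windows. These matches describe the letters of the windows and not sites of binding.

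Gli2 signal at day 0 was narrow in range at the 301 loci, from 100.1 to 234.7 with a median of 107.5 and quartiles of 107.5 and 116.9. Exactly 147 loci had 107.5, another 37 had 111.1, 37 had 119.5 and 19 had 102.7. These repeated values lie on a grid, a whole number of units of 11.945 less a whole number of background units of 8.39. Read this way with a tolerance of 0.06, 290 of the 301 signals resolved into 9 to 16 counted units less at most 4 background units, whereas 5.2% of evenly spaced values would do so. The unit and background unit were searched near values fitted to low signals, to resolve as many of these 301 signals as possible. This favours a high share, and the 5.2% was taken at the chosen values without such a search. Of the 290, 147 rested on 9 units, 93 on 10 and 26 on 11, and 200 had no background unit subtracted. That these are counts was read off the deposited values, and the authors do not state it.

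**Figure D1:**
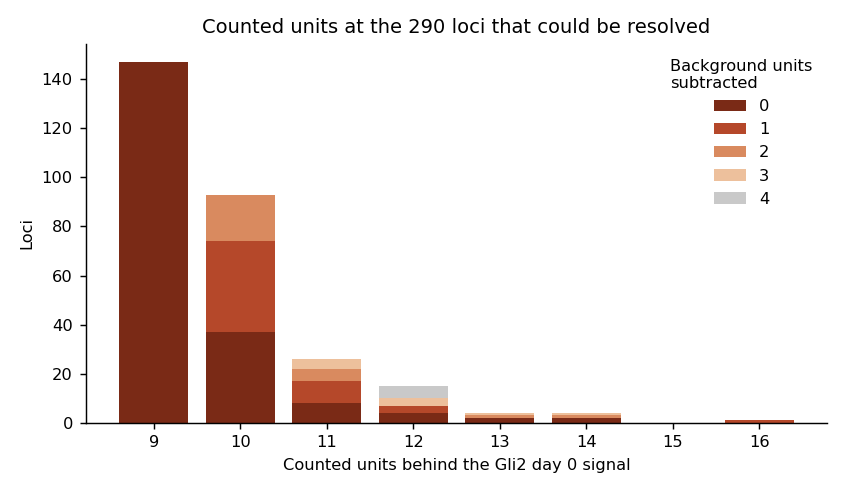
Number of loci (vertical axis) by the counted units behind the Gli2 day 0 signal (horizontal axis), with shades for the background units subtracted, for the 290 loci that could be resolved. The column at 9 units holds 147 loci and the one at 10 units holds 93.

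The smallest number of units that reaches 100 in this library is 9, so 48.8% of the loci (95% exact binomial interval 43.1 to 54.6) stood at the lowest signal without background that could be listed. An exact Poisson interval for 9 units runs from 4.12 to 17.08 units, or from 49.2 to 204.1 in signal, for counting error only. Loci at day 0 that also reached 100 in another library, again without those beside tRNA genes, stood at 9 units in 1 of 121 cases and had a median of 225.7. The 56 loci of Gli2 day 0 alone beside a tRNA gene stood at 9 units in 4 cases and had a median of 198.2. A signal of 200 or more was reached by 1 of the 301 loci, by 66 of the 121 and by 27 of the 56. Just outside the choice, 12 listed loci away from tRNA genes had day 0 Gli2 signals between 90.4 and 99.1, and 10 loci at 100 or more had a highest other signal of 100.3 to below 110.

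The value of 1 unit differed between libraries and moved with the number of loci listed through 1 library alone. It was 14.506 in Elk1 pri-NPC, 11.94 in Gli2 day 0 and 9.69 in Elk1 day 4, fitted to low signals, and these 3 libraries had 677, 357 and 190 loci at 100 in that library alone. In the other 7 libraries the unit was worth 2.822 to 7.518 and the loci alone numbered 1 to 29. A signal of 100 took 9 units in Gli2 day 0, 14 in Gli2 day 4, 24 in Gli2 day 8, 34 in Gli2 ciNSLCs and 18 in Gli2 pri-NPC. The part of this difference in the length of the list was not tested.

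**Figure D2:**
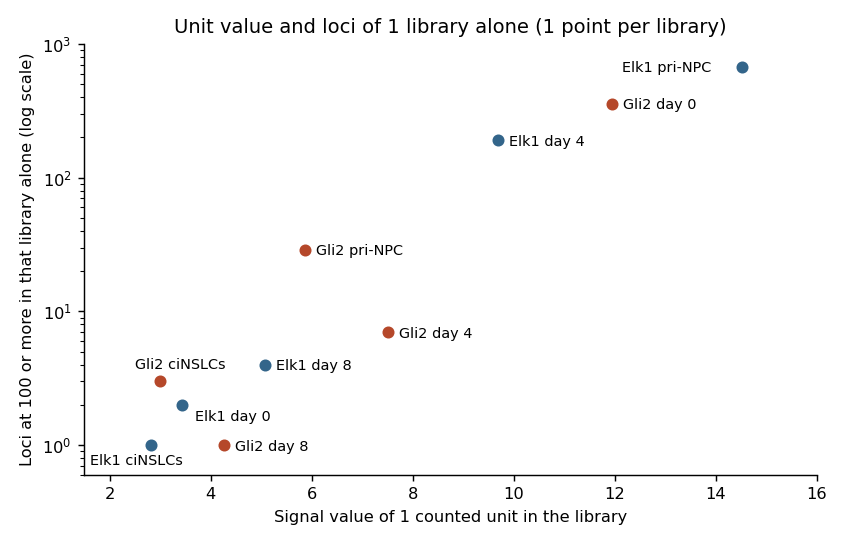
Loci at 100 or more in 1 library alone (vertical axis, log scale) against the signal value of 1 counted unit (horizontal axis), 1 point per library, Gli2 in red and Elk1 in blue. Elk1 pri-NPC, Gli2 day 0 and Elk1 day 4, with the largest units, hold 677, 357 and 190 loci.

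Gli2 signal at the other stages was low at nearly all of the 301 loci. Against 107.5 at day 0, the medians for day 4, day 8, ciNSLCs and pri-NPC were 15.0, 11.2, 9.0 and 11.7. In the same order 60, 36, 34 and 26 loci were listed at 0, and no locus was at 0 in all 4. The medians correspond to 2, 2.62, 3 and 1.99 counted units. A count of 0 allows up to 3 units, which are signals of 22.6, 12.8, 9 and 17.6, so a difference between these stages was not detectable at a typical locus.

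**Figure D3:**
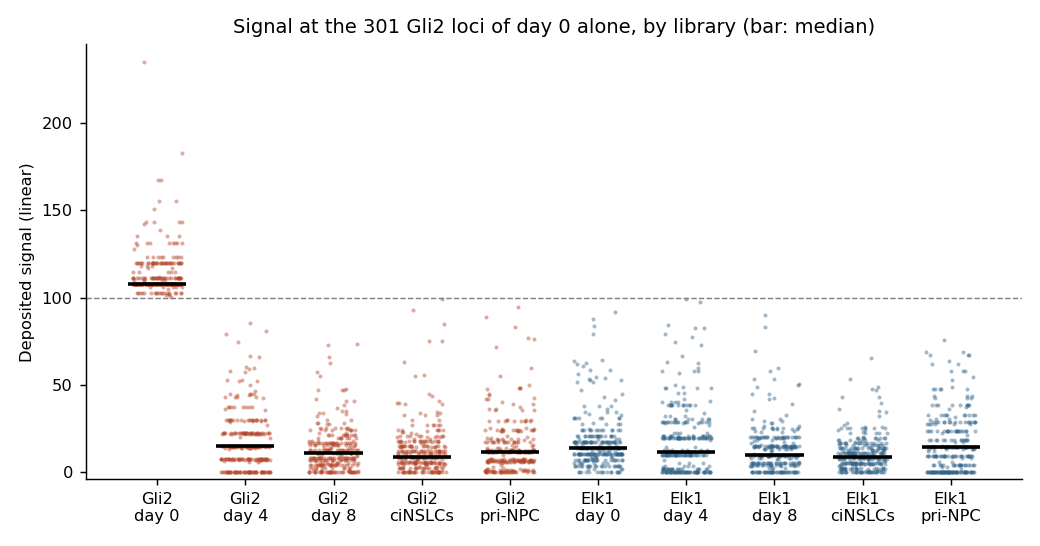
Deposited signal (vertical axis, linear) at each of the 301 loci (points) in the 10 libraries, with the median as a bar and the limit of 100 as a dashed line. Gli2 day 0 lies between 100.1 and 234.7 and the medians of the other libraries between 8.9 and 15.0.

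Relative to day 0, the median log2 difference of signal plus 1 was, for day 4, day 8, ciNSLCs and pri-NPC, -2.80, -3.20, -3.44 and -3.11. At least 2-fold lower than at day 0, beyond a counting interval that left out a ratio of 1, were 249, 290, 294 and 283 loci in that order. Over all 1577 loci the same was true of 32.3%, 38.3%, 32% and 29.2%. The choice of the loci used these signals, and nothing about the stages is read from the counts. Without the counting interval the numbers were 293, 297, 297 and 295, against 54.2%, 57%, 45.9% and 41% of all loci. Scaled to the same median, day 0 signals are multiplied by 0.42 and the differences were -1.56, -1.75, -2.20 and -2.22.

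Elk1 signal at the 301 loci was likewise low, with medians of 13.7, 11.4, 10.2, 8.9 and 14.5 from day 0 to pri-NPC. At day 0 Elk1 signal was at least 2-fold lower than Gli2 signal at 289 loci, against 56.2% of all loci, and at 278 beyond counting error, against 38.6%. The highest signal among the other 9 libraries had a median of 29.3 and stayed below 50 at 249 loci. It belonged to Elk1 pri-NPC at 67 loci, to Elk1 day 4 at 64 and to Elk1 day 0 and Gli2 day 4 at 44 each.

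The level of Gli2 at the other stages was set beside that of loci listed through the Elk1 pri-NPC library alone, whose choice held Gli2 below 100 at every stage, day 0 included, and so caps this level too. At those 677 loci the Gli2 medians from day 0 to pri-NPC were 11.9, 7.5, 9.6, 13.6 and 18.3. The day 0 Gli2 loci had higher medians than these at days 4 and 8 and lower ones in ciNSLCs and pri-NPC, and the quartiles overlapped at all 4 stages. At the 56 day 0 loci beside tRNA genes, all below 100 elsewhere by the same choice, the Gli2 medians were 30.1, 24.8, 29.65 and 45.95 in the order of stages, with lower quartiles of 21.9, 16.7, 19.4 and 30.3. The corresponding upper quartiles of the 301 loci were 22.6, 17.1, 16.6 and 17.6. No test was made because each of these sets was cut from the signals themselves.

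**Figure D4:**
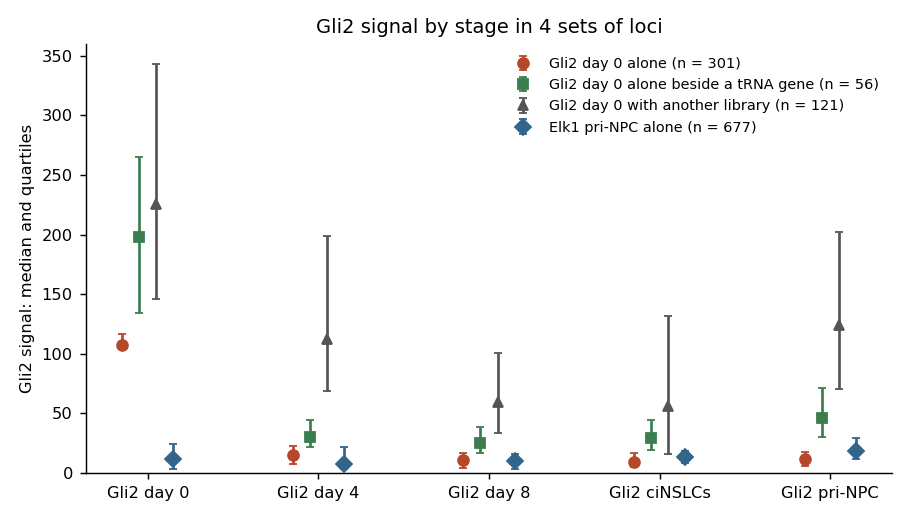
Gli2 signal (vertical axis, linear; symbol for the median, bars for the quartiles over loci) by stage in 4 sets of loci. At day 4 to pri-NPC the 301 day 0 loci (circles) have medians of 9.0 to 15.0, beside 7.5 to 18.3 at loci of Elk1 pri-NPC alone (diamonds) and 24.8 to 45.95 at day 0 loci beside tRNA genes (squares).

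A small number of the 301 loci had appreciable Gli2 signal in every Gli2 library. Gli2 signal was 25 or more in all 4 other libraries at 7 loci, a limit chosen after the values were seen, while at 202 loci it was below 25 in all 4. Some of the 7, the Rn7s2 and snRNA loci below, lay at small RNA genes, and the Eef2k locus lay some kb from a tRNA gene. Within 1 kb of a small RNA gene were 4 of the 301 loci. The same was true of 16 of the 121 day 0 loci shared with another library and of 41 of all 1577. The locus overlapping Rn7s2 (chromosome 12, 69360945 to 69361325), a gene of the 7SL RNA of the signal recognition particle, 3744 bp from the ribosome quality control gene Nemf, gave 182.7 for Gli2 at day 0. Gli2 was then 60.2 at day 4, 25.6 at day 8, 75.2 for ciNSLCs and 48.2 for pri-NPC, the order kept for each series of 5 Gli2 or Elk1 values below. Its Elk1 signals were 0 to 19.4. Day 0 is the highest value by the choice of the loci, and ciNSLCs was the next at Rn7s2.

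Inside D230017M19Rik, with Pecr, a peroxisomal enoyl-CoA reductase gene, as the nearest protein-coding gene, 2 loci had signal in all Gli2 libraries. The locus overlapping the snRNA gene Gm24497 (chromosome 1, 72244265 to 72244585) had Gli2 signals of 155.3, 74.7, 62.4, 75.2 and 94.5. The locus 27 bp from the snRNA gene Gm25939 (chromosome 1, 72255225 to 72255445) had 135, 37.6, 72.6, 98.9 and 83.4. At both, Gli2 was above every Elk1 signal in each stage, since Elk1 reached at most 21.1 and 29.1. The locus in Tmem29 (chromosome X, 150478665 to 150478885) had Gli2 signals of 107.5, 43.3, 41.1, 92.9 and 88.7, so that ciNSLCs and pri-NPC stood close to day 0. The Eef2k locus (chromosome 7, 120842465 to 120842725), whose promoter window is printed above, had 135, 44.2, 34.2, 40.6 and 76.3, and the nearest tRNA gene was 6905 bp away.

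On chromosome 6, 4 loci between 47650565 and 47757765 formed a run, each less than 100 kb from the next and 221232 to 327892 bp from the nearest annotated tRNA gene. Their Gli2 medians were 113.5, 22.6, 28.2, 36.9 and 56.7, with Elk1 signals of 0 to 19.4. The locus nearest to Gm40369 had 167.2, 52.6, 36.8, 33.9 and 71.7, and lay 3816 bp from the small RNA gene Rn4.5s. The loci nearest to Gm40363 lay 23859 to 41579 bp from the small RNA gene Rny3. The first of those nearest to Gm40363 had 107.5, 15, 47, 84.8 and 76.9, so that day 8, ciNSLCs and pri-NPC stood above day 4. The highest day 0 signal of all, 234.7 at the Gm15564 locus 1363 bp from the importin gene Kpna1 (chromosome 16, 35981545 to 35981925), came with Gli2 signals of 78.9, 21.4, 15 and 47.5 and Elk1 signals of 1.7 to 19.1.

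Of the remaining loci with high day 0 signal and a protein-coding gene within 50 kb, most were low elsewhere. The locus overlapping Snord37, a small nucleolar RNA gene inside Eef2, the gene of translation elongation factor 2 (chromosome 10, 81178945 to 81179325), gave Gli2 signals of 155.3, 15, 11.2, 12.9 and 0.6. It differs in this from Rn7s2 and the snRNA loci, although it too lies on a small RNA gene. The locus 10655 bp from Gja3, a gap junction gene, had 143.3, 7.5, 4.3, 2.3 and 5.9. The locus in Slc1a1, a glutamate transporter gene, had 143.3, 15, 8.5, 10.6 and 12.4. The Hnrnpab locus, on a gene start, had 131.4, 7.5, 8.5, 17.3 and 9.8, with Elk1 signals of at most 10.3. A locus in 1700113H08Rik had 142 at day 0 and Gli2 signals of 6.5 to 30.1 elsewhere, and one 8174 bp from Gm32719 had 150.4 and Gli2 signals of 6.9 to 13.7, although Elk1 reached 82.7 there at day 4.

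**Figure D5:**
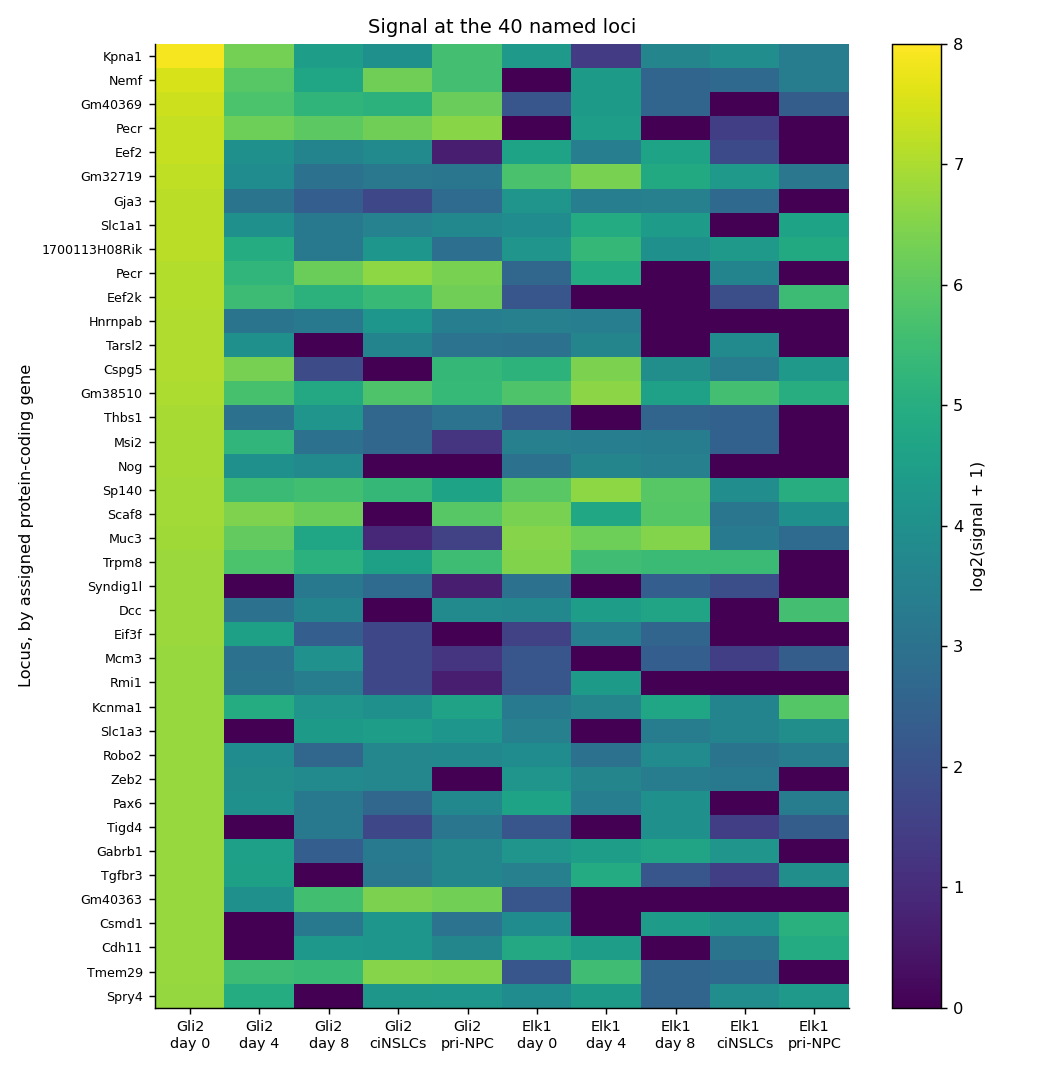
Signal as log2(signal + 1) (colour) at the 40 named loci (rows, by nearest protein-coding gene, ordered by Gli2 day 0; both Pecr rows are different loci) in the 10 libraries (columns). Rows such as Pecr and Tmem29 stay bright in the other Gli2 libraries, rows such as Trpm8 and Muc3 in some of the Elk1 libraries, and most rows in Gli2 day 0 alone.

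Genes of 13 lists were matched to loci whose nearest protein-coding gene they were, up to 50 kb away. Of 433 annotated genes on the lists, 15 had a day 0 Gli2 locus of this kind and 58 had any listed locus. None of 26 Hedgehog pathway genes had one, and the only listed locus of that list, at Smo, belonged to the loci that also reached 100 in an Elk1 library. None of 24 cell cycle and Hedgehog target genes, 35 WNT pathway genes, 29 immediate-early genes or 30 chromatin regulators had one either. Over all 21900 protein-coding genes, 697 had any listed locus and 194 (0.886%) had a day 0 Gli2 locus of this kind. A count of 0 in 24 to 35 genes is near the latter background and no result about those lists. The 13 lists were chosen with earlier results of these data known. The list genes with a locus are all given below.

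Of 39 neural progenitor genes 3 had such a locus. The locus in Msi2 (chromosome 11, 88714325 to 88714625), an RNA-binding protein of progenitors, gave Gli2 signals of 119.5, 37.6, 6.9, 5.3 and 1.3. The locus in Slc1a3 (chromosome 15, 8684365 to 8684585), the glutamate transporter of glia and radial glia, had 107.5, 0, 19.7, 21 and 17.6. The locus 38631 bp from Pax6 (chromosome 2, 105630045 to 105630265), which encodes a regulator of eye and forebrain development, had 107.5, 15, 8.5, 5.3 and 12.4. At none of the 3 was Gli2 in ciNSLCs or pri-NPC near the day 0 value, which the choice of the loci favours. Gli2 was at least 2-fold lower there at 297 and 295 of all 301 loci. Elk1 signal at the 3 loci was at most 10.3, 14.5 and 24.

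Of 34 annotated fibroblast and matrix genes 2 had one. The locus in Thbs1 (chromosome 2, 118114305 to 118114605), which encodes the matrix glycoprotein thrombospondin-1, had Gli2 signals of 123, 7.1, 17.1, 5.3 and 7.2, on 11 counted units at day 0. The locus in Zeb2 (chromosome 2, 45033905 to 45034125), a transcription factor of epithelial-mesenchymal transition, had 107.5, 14.6, 12.8, 12 and 0. Both, high at day 0 by the choice, were within a few units of 0 elsewhere.

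Among signalling genes, the TGF-beta and BMP list had 2 of 31 and the FGF and MAP kinase list 1 of 31. The locus 42353 bp from Nog (chromosome 11, 89258065 to 89258285), the gene of the BMP antagonist noggin, had Gli2 signals of 119.5, 15, 12.8, 0 and 0. The locus in Tgfbr3 (chromosome 5, 107173345 to 107173565), the co-receptor betaglycan, had 107.5, 22.6, 0, 8.3 and 11.7. The locus 46702 bp from Spry4, an inhibitor of MAP kinase signalling, had 106.2, 30.1, 0, 18 and 17.6. With distances of over 40 kb, Nog and Spry4 are the nearest genes and no more than that.

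Axon guidance and neuronal adhesion genes had 3 of 53, all inside the gene. The Slit receptor gene Robo2 (chromosome 16, 75426625 to 75426925) had Gli2 signals of 107.5, 13.7, 5.3, 12 and 12.4, and its locus lay 7254 bp from a tRNA gene. The netrin receptor gene Dcc had 111.1, 7.1, 11.2, 0 and 13, and Csmd1, a large transmembrane protein gene, had 107.5, 0, 8.5, 17.3 and 7.2. Among cadherins 1 of 26 had a locus, in Cdh11, a cadherin of mesenchymal cells, with 107.5, 0, 18.1, 17.3 and 11.7. Of 51 receptor and channel genes 2 had one, the potassium channel gene Kcnma1 with 107.5, 30.1, 17.1, 15 and 23.5 and the GABA receptor gene Gabrb1 with 107.5, 22.1, 4.3, 9 and 11.7. The tRNA synthetase and polymerase III list had 1 of 28, in Tarsl2, a threonyl-tRNA synthetase-like gene, with 131.4, 15, 0, 11.3 and 7.2. Of these 7 loci, 5 stood at 9 units at day 0, the lowest number that reaches 100 without background.

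By the sum of the other 9 signals, the lowest loci with a protein-coding gene within 50 kb were those nearest to Mcm3 (a subunit of the replicative helicase), Rmi1 (a partner of the Bloom helicase), Tigd4 and Syndig1l and in Eif3f (a translation initiation factor subunit). Their day 0 Gli2 signals were 107.5 at Mcm3, Rmi1 and Tigd4 and 111.1 at Syndig1l and Eif3f. Their highest signals in any other library were 15.5 at Mcm3, 19.4 at Rmi1, 15.2 at Tigd4, 8.5 at Syndig1l and 22.6 at Eif3f. The distance to the gene was 28973 bp at Mcm3, 47456 bp at Rmi1, 533 bp at Tigd4 and 3872 bp at Syndig1l. Other annotated genes lay closer at Mcm3 (Gm24723, 6619 bp) and Rmi1 (Gm33875, 6832 bp).

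The loci with the highest Elk1 signal showed the opposite pattern, with signal of both antibodies at day 0 and day 4, and at later stages in some of them. The Sp140 locus (chromosome 1, 85625005 to 85625285), in a gene of an interferon-inducible nuclear body protein, had Elk1 signals of 61.1, 99.2, 59.6, 14.2 and 30.8 beside Gli2 signals of 118.2, 42.4, 47.2, 39.6 and 24.1. The locus 7770 bp from Trpm8, a cold-sensing channel gene (chromosome 1, 88298685 to 88298965), had Elk1 signals of 87.8, 45.6, 42.4, 43.1 and 0 beside Gli2 signals of 111.1, 52.2, 33.6, 22.6 and 45. A locus in Gm38510, also on chromosome 1 (85262305 to 85262625), had Elk1 signals of 23.1 to 97.5. In these 3 loci Gli2 at day 0 was less than 2-fold above the highest Elk1 signal, which the same choice favours. Another locus in Gm38510 (85282705 to 85282925) had Elk1 signals of 0 to 47.6 and a day 0 Gli2 signal of 101.4.

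Away from chromosome 1, the Muc3 locus (chromosome 5, 137152145 to 137152445), in a mucin gene, had Elk1 signals of 91.6, 74.7, 89.9, 8.9 and 5.9 beside Gli2 signals of 114.6, 65.9, 25.4, 0.9 and 1.9, so that both antibodies were low in ciNSLCs and pri-NPC. The locus at the pseudogene Pisd-ps2, 34087 bp from Scaf8, had Elk1 signals of 7.8 to 83.6 and Gli2 signals of 116.9, 85.7, 73.4, 0 and 59.9. The locus 18549 bp from Cspg5 (chromosome 9, 110281125 to 110281485) had Elk1 signals of 34.7, 84.4, 14.4, 9.2 and 18.6 beside Gli2 signals of 130.1, 80.9, 2.6, 0 and 39.1, and was high with both antibodies at day 4. It holds the only microRNA gene among the 301 loci, Mir6236 (chromosome 9, 110281353 to 110281371 for the mature form), shown with its seed in capitals.
mmu-miR-6236: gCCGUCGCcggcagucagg

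The chromosome 1 examples came from a stretch between 85 and 89 Mb that held 17 of the 301 loci and 66 of all 1577. In 2 runs of loci less than 100 kb apart, 4 lay at Sp110 and Sp140 and 10 at Hjurp, Mroh2a and Trpm8. Median Elk1 signal at day 0 was 53.1 in the stretch and 13.7 at the 284 loci elsewhere, and median Gli2 signal was 43.3 against 15.0 at day 4 and 28.1 against 10.4 at day 8. At least 1 background unit had been subtracted from the day 0 Gli2 signal at 11 of the 17 loci and none at 2, with 4 unresolved, while none had been subtracted at 198 of the 284. The stretch also held 23 of the 190 loci of Elk1 day 4 alone and 2 of the 677 of Elk1 pri-NPC alone.

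Position was not used in the choice of the loci, apart from the distance to tRNA genes. Of the 301 loci, 126 (41.9%, exact binomial interval 36.2 to 47.7) overlapped a protein-coding gene, 28 overlapped another kind of gene only and 147 overlapped none. Without the chromosome 1 stretch the share in a protein-coding gene was 39.8%. The same share was 26.4% (23.2 to 29.9) at loci of Elk1 pri-NPC alone, 38.9% (32 to 46.3) at loci of Elk1 day 4 alone and 36.4% (27.8 to 45.6) at day 0 Gli2 loci shared with another library. Over all 1577 loci, which include the 301 and the loci beside tRNA genes, it was 30.5% (28.2 to 32.8). At the 56 day 0 loci beside a tRNA gene it was 10.7% (4.0 to 21.9). The interval of the 301 loci did not overlap those of Elk1 pri-NPC alone and of all loci. It overlapped those of Elk1 day 4 alone and of the shared loci. These intervals treat loci as independent and cover counting error only.

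Few loci lay at the gene starts that were available. Of the 288 loci on chromosomes with start sites, 6 (2.1%, interval 0.8 to 4.5) were within 1 kb of the start of a protein-coding gene, at Hnrnpab, Eef2k, Hjurp, Trpm8, Mpp6 and Mcf2. The share was 5.9% (2.4 to 11.8) for day 0 loci shared with another library, 0.6% (0.2 to 1.6) for Elk1 pri-NPC alone, 2.1% (0.6 to 5.4) for Elk1 day 4 alone and 3.7% over all loci. The median distance to a start was 54546 bp for the 301 loci, 33727 bp for the shared ones, 65166 bp for Elk1 day 4 alone and 304470 bp for Elk1 pri-NPC alone. The 13 loci on chromosome 18 were not analysed for start sites. Starts of some genes on the other chromosomes were missing too. The locus in Thbs1, for example, had its nearest available start at Gpr176, 258814 bp away. In every set the shares may thus be too low and the distances too long.

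The loci were short, as were those of the Elk1 libraries alone. Their median width was 240 bp (quartiles 220 and 280, longest 540), against 260 bp over all 1577 loci. The shortest width of the table, 220 bp, was that of 131 of them (43.5%). It was also that of 48.9% of loci of Elk1 pri-NPC alone, 33.2% of Elk1 day 4 alone and 33.9% of all loci. Loci of Elk1 pri-NPC alone had the same median, those of Elk1 day 4 alone 250 bp, and day 0 Gli2 loci shared with another library 540 bp (quartiles 400 and 800). Chromosome 1 held 43 loci, or 14.3% (10.5 to 18.8), against 11.9% of all 1577 loci, which lies inside that interval, and 20.5% of Elk1 day 4 alone. Chromosome 11 held 24, the next most. Per 100 Mb up to the last annotated gene this was 22 on chromosome 1, 19.7 on chromosome 11 and 4.7 on chromosome X, the lowest of the chromosomes with any. Of the 301 loci 263 had no other within 100 kb.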

How the data were processed

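Elk1 and Gli2 libraries were available for 5 stages, 1 each, so replicate spread is unknown. The values are signals that the authors deposited for 1577 loci, 1 column per library (build mm10). CASAVA 1.8.4, FastQC, Bowtie2 and SAMtools are named, without roles, per the submitters' processing notes. Peak caller, background and scaling: not given in the sources used here. Total read depth is unknown. Every listed locus reached 100 in at least 1 library.

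Signals were used as deposited, with a pseudocount of 1 on the log2 scale. A unit value per library and a background unit per stage were fitted to signals below 60, and the procedure was tested on simulated data. Signals divided by the unit gave exact conditional binomial intervals of ratios (95%), which ignore background subtraction and listing. PCR reads without molecular identifiers are not independent molecules, so intervals and floors (3 counts) cover counting error only. No filter on low values was applied, and all 301 loci were used.

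Genes came from RefSeq (GRCm38.p6), with 408 nuclear tRNA and 21900 protein-coding genes. The gene table holds no exons, so exon, intron and UTR are left out, and coordinates stay as deposited. A protein-coding gene lay within 50 kb of 209 loci, the nearest being taken (194 genes).

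Named were up to 4 loci of each of 13 gene lists, and, among loci with a protein-coding gene within 50 kb, the 10 with the highest day 0 Gli2 signal, the 5 with the highest sum of other Gli2 signals, the 5 with the lowest sum of the other 9 signals and the 5 with the highest Elk1 signal, besides up to 6 on promoter windows. The loci of the chromosome 6 run, Snord37, Hjurp, Mpp6 and Mcf2 were added after their values were seen where not named by this rule. The loci and lists were chosen with earlier results of these data known. Alternatives were other limits, tRNA distances, pseudocounts, folds, gene distances and median scaling, and, chosen after seeing the data, leaving out the chromosome 1 stretch. Software was scipy 1.17.1 and pandas 2.3.3 under Python 3.11.15, with matplotlib 3.10.9 for plots and numpy 2.4.6.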

Additional observations from a re-analysis of the deposited data

How the results depend on the processing

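No paired analysis was possible because each antibody and stage had 1 library. Of 55 alternative values none changed direction and 33 stayed within the interval of the value or within 1.5 times of the count. The number of loci was 301, but 120 with a day 0 limit of 110 and 7 with a limit of 150. It was 0 with each library scaled to a common median of 14.9, which multiplies day 0 Gli2 by 0.42 and so depends on the median chosen. The median log2 Gli2 differences from day 0 at day 4, day 8, ciNSLCs and pri-NPC were -1.56, -1.75, -2.20 and -2.22 with that scaling, -2.52, -2.84, -3.01 and -2.79 with a pseudocount of 5, and -1.65, -2.79, -2.44 and -2.28 at the 7 loci of 150 or more. With a pseudocount of 0.1 the ciNSLC value was -3.56. The Elk1 to Gli2 difference at day 0, -2.97, was -1.22 with scaling, -2.65 with a pseudocount of 5 and -3.55 at the 7 loci. The share in protein-coding genes, 41.9%, was 53.5% within 5 kb and 14.3% at the 7 loci, whose median width was 380 bp. Other fold limits and leaving out the chromosome 1 stretch kept every value they were run on within those bounds. The filter on low values removed none of the 301 loci, so its 5 values, counted among the 33, equal the reported ones by construction and say nothing about stability. With 9 to 11 counted units at most loci, counting error limits every single value.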

Other observations

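Large gene families were counted beside all 21900 protein-coding genes, of which 697 had any listed locus within 50 kb. Of the 21900 genes, 194 (0.886%) had a day 0 Gli2 locus of this kind within 50 kb. Of 1110 annotated olfactory receptor genes, 4 had such a locus (Olfr1151, Olfr339, Olfr477 and Olfr722) and 37 had any listed locus. Of 355 vomeronasal receptor genes 1 had one, Vmn1r26, and 9 had any. Solute carriers had 5 of 389, among them the glutamate transporters Slc1a1 and Slc1a3 and the zinc transporter Slc39a12, and 12 had any. Of 400 zinc finger genes named Zfp, 1 had one, Zfp982, and 10 had any.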
